A study of Mus musculus with 2 samples.

Results

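The genes described here encode the machinery that folds proteins in the endoplasmic reticulum (ER) and removes those that fail to fold. The members were chosen by name: 49 gene names were looked up in the table of both libraries, and they stand for 47 genes, because Ero1l and Vimp are older names of Ero1a and Selenos. Of these, 45 genes were among the 14197 genes of the table, and Derl3 and Uggt2 were not analysed here. To detect whether astragalin (AS) changed their transcripts, 4T1 cells treated with AS at 20 μM for 24 h were compared with 4T1 cells given the vehicle. 4T1 is a murine breast cancer (BC) line, AS is a plant flavonoid, both groups were labelled WT, and the vehicle, which the study names as DMSO in other assays, has no dose or time in the labels. Each group was 1 RNA-seq library, so none of the differences has a replicate check and no p-value is given.

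The ER lumen is where secreted and membrane proteins are inserted, glycosylated, cross-linked by disulfide bonds and folded by chaperones. Proteins that do not fold are pulled back into the cytosol, ubiquitinated and degraded, a route called ER-associated degradation (ERAD). When unfolded proteins pile up, ATF6, the IRE1 product XBP1 and the PERK-controlled factor ATF4 raise transcription, and chaperone and ERAD genes are textbook targets of ATF6 and XBP1, whereas ATF4 mainly drives amino acid and stress genes such as Ddit3.

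ATF6 and XBP1 are known to act through the ER stress response element (ERSE), which is CCAAT and CCACG separated by 9 bases of any kind. Promoter windows from RefSeq (GRCm38.p6), running from 250 bases before to 50 bases after the transcript start, were matched for 39 of the 45 genes, and both strands were searched. The ERSE was present in 9 of them (23.1%), against 16 of the 9680 genes of the table with a window (0.165%) and 39 of all 32851 windows (0.119%). The stretches that hold it are shown because they are the sequence feature shared by chaperones, folding enzymes and an ERAD ligase. They read 5′ to 3′ on the strand of the gene, with the element in capitals, in the reverse orientation for Creld2, Calr, Ero1b and the copy of Hsp90b1 nearer to the start.
Hspa5 (chr2:34772020-34772048, plus strand): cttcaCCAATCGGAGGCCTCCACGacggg
Hsp90b1 (chr10:86705513-86705676, minus strand): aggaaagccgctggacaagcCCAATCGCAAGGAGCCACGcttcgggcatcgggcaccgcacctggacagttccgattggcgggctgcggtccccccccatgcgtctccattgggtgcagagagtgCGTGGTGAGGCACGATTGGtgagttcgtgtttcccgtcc
Dnajc3 (chr14:118937807-118937865, plus strand): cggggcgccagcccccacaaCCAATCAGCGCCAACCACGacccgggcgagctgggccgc
Creld2 (chr15:88819500-88819558, plus strand): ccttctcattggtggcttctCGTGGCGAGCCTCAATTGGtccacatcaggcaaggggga
Calr (chr8:84847055-84847113, minus strand): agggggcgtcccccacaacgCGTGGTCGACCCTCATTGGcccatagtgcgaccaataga
Canx (chr11:50325780-50325838, minus strand): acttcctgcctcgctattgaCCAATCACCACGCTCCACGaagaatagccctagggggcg
Pdia6 (chr12:17266471-17266529, plus strand): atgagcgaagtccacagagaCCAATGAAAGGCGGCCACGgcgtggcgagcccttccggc
Ero1b (chr13:12565662-12565720, plus strand): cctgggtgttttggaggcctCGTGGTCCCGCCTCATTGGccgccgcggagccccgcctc
Syvn1 (chr19:6046512-6046570, plus strand): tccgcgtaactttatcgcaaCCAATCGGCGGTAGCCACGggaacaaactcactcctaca

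The position of the element differed between these genes. It lay closest to the RefSeq start in Syvn1, from -44 to -26, and in Hspa5, from -65 to -47, and farthest in the distal copy of Hsp90b1, from -212 to -194, and in Ero1b, from -201 to -183. Hsp90b1 was the gene with 2 copies, the second from -107 to -89. Gene positions are those of GENCODE M21 (GRCm38), in which a transcript of Hspa5 starts upstream of the RefSeq start, so that the element lies in its first exon there and is shown with short flanks. A related element, ERSE-II, is ATTGG and CCACG separated by 1 base. It was found in Herpud1 from -52 to -42 and in Dnajb11 after the start, and in 0.0930% of the genes of the table with a window. The Herpud1 promoter is shown because it also holds, from -113 to -105, a match in the reverse orientation to the composite site bound by ATF4 and C/EBP factors, which is TGATG, 1 base, and AAT or AAC. Both matches are in capitals, and that composite site was also found in Txndc5, and in 1.15% of the genes of the table with a window.
Herpud1 (chr8:94386296-94386407, plus strand): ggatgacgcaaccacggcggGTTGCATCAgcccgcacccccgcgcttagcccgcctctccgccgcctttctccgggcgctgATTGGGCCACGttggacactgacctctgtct

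The XBP1-binding core TGACGTGG was found in Txndc11, Txndc5 and Ube2j1, against 1.04% of those genes. A match is a description of the letters, and binding was not measured.

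Levels are given as RPKM, that is, reads per kilobase of exon after division by library size, so that genes of different length can be set side by side. The log2 fold change of AS over vehicle was taken with 0.1 RPKM added to both values, so it understates the difference of the lowest genes. The reads behind the values were recovered from the RPKM and the exon lengths, and for the 45 genes they ranged from 113 to 207603. The intervals given are 95% exact Clopper-Pearson intervals on these reads. They cover counting error only, since reads are not independent molecules and the spread between dishes was not measured.

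The library sizes recovered from the values were 44909683 reads for AS and 50820728 reads for the vehicle. The median log2 fold change over all 14197 genes was 0.07, and 60.9% of them were higher with AS. Among the 517 genes over 100 RPKM in the vehicle library the median was -0.10, and 24.4% were higher. The epithelial markers were abundant in both libraries, with Epcam at 335 RPKM with AS and 357 RPKM with the vehicle and Cdh1 at 95.5 and 84.6 RPKM. The keratin genes were lower with AS, Krt8 at 372 and 540 RPKM (log2 fold change -0.54) and Krt18 at 707 and 902 RPKM (-0.35). The leukocyte marker Ptprc was at 0.116 with AS and 0.114 with the vehicle, the collagen gene Col1a1 at 0.896 and 0.711, and the macrophage marker Cd68, which tumour cells also express, at 24.0 and 28.1, while Pecam1 was not analysed here. In bulk RNA, fewer cells of a kind and less RNA per cell cannot be told apart.

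None of the 45 genes differed by 2-fold between the libraries, against 0.972% of all genes, and none by 1.5-fold, against 5.57% of all genes. A threshold of 1.25-fold, chosen after the values were seen, was passed upward by 4 genes (8.89%), against 14.9% of all genes, and downward by 4 genes (8.89%), against 7.67% of all genes. The 4 higher genes were Ero1b, Dnajb9, Edem3 and Derl1, and the 4 lower genes were Sec61b, Fkbp14, Calr and Sdf2l1. The log2 fold changes ran from -0.55 to 0.50 with a median of 0.0076 and an interquartile range of -0.14 to 0.20. By direction, 23 genes were higher and 22 lower with AS, and 17 of the 45 (37.8%) lay above the median of all genes. Under each of 3 other scalings of the libraries the split became 17 higher and 28 lower, because 6 genes with values near 0, namely Canx, Dnajc10, Erlec1, Pdia4, Sec63 and Syvn1, changed sign. The counting interval lay above 0 for 19 genes, below 0 for 14, and held 0 for 12. Over the 12858 genes of the table with recovered reads, it lay above 0 for 4894, below 0 for 2576, and held 0 for 5388. More reads narrow an interval, and the median level with the vehicle was 12.8 RPKM for the 45 genes against 4.79 RPKM for all genes.

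**Figure D1:**
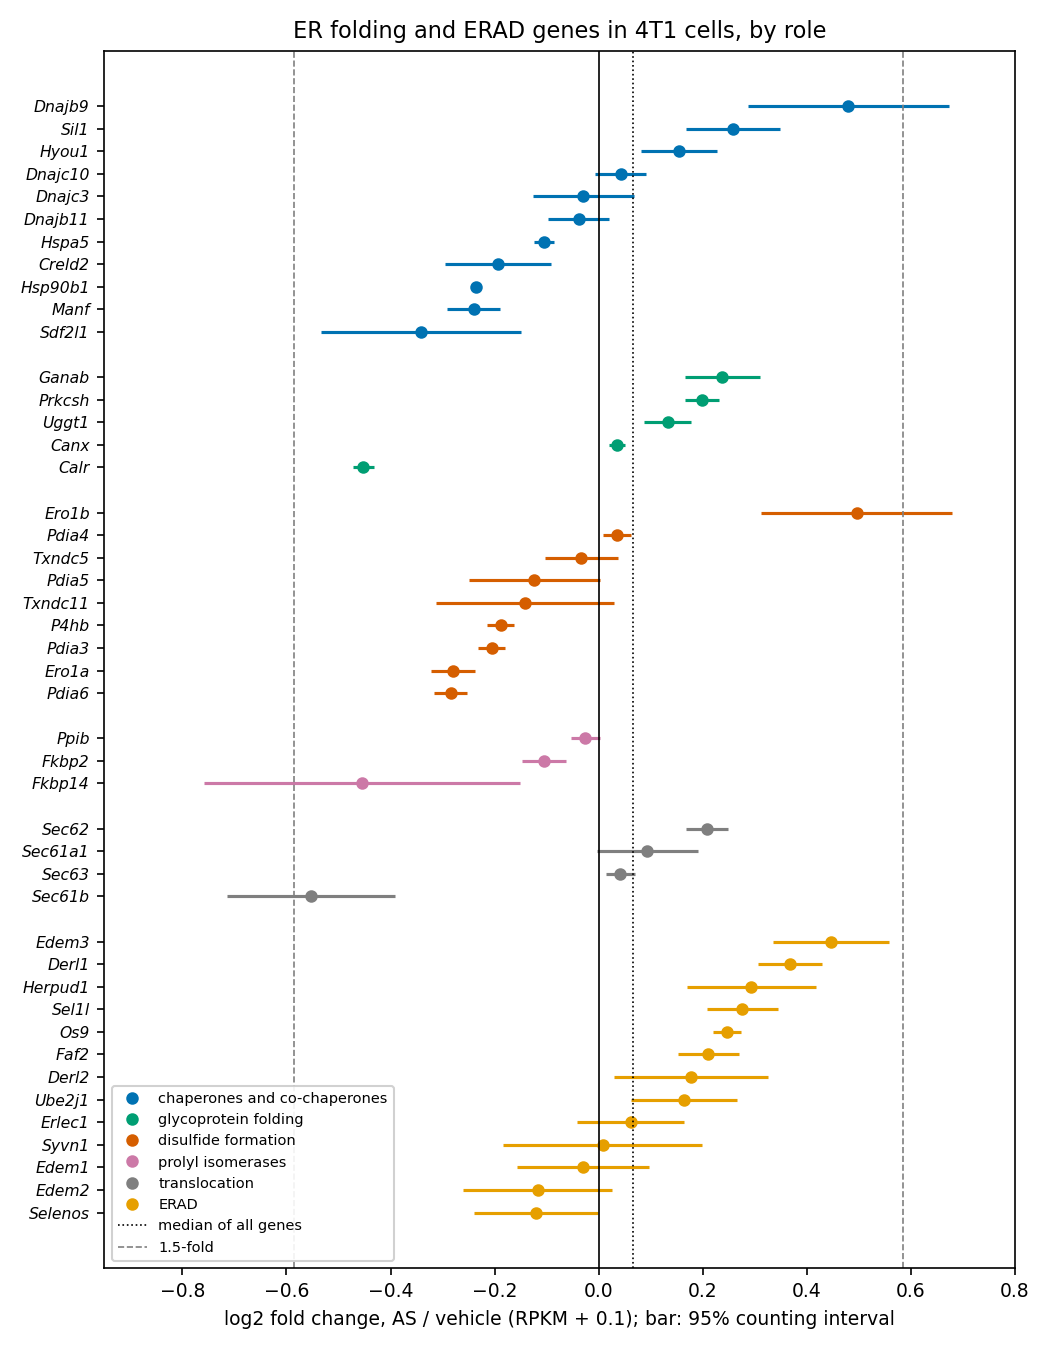
Log2 fold change of AS over vehicle (RPKM + 0.1) for the 45 genes, grouped by role, with 95% counting intervals from the reads of 1 library per group. No point reaches the dashed 1.5-fold lines, 10 of 13 ERAD genes lie right of 0, of which Erlec1 and Syvn1 turn sign under the other scalings, and 7 of 9 disulfide genes lie left of it, joined there by Pdia4 under those scalings. Of all genes, 60.9% were higher with AS.

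The abundant chaperones Hsp90b1 and Hspa5 were lower with AS, and the rarer genes of this group went both ways. Of the 11 chaperone and co-chaperone genes, 4 were higher (36.4%, against 60.9% of all genes) and 7 lower, with a median of -0.04. Their summed level was 1229 RPKM with AS and 1406 RPKM with the vehicle, a difference of -12.6%, most of which came from Hsp90b1 alone. Hsp90b1 (chr10:86690209-86705509), which encodes GRP94, the HSP90 of the ER, was the most abundant member at 860 RPKM with AS and 1013 RPKM with the vehicle, ranks 44 and 41 of all genes. Its log2 fold change was -0.24 (-0.25 to -0.23). Hspa5 (chr2:34771970-34777547), which encodes BiP, the HSP70 of the ER and a master regulator of the stress sensors, was at 214 RPKM with AS and 230.5 RPKM with the vehicle, giving a log2 fold change of -0.10 (-0.12 to -0.09). The value of Hspa5 lay at the median of -0.10 of all genes over 100 RPKM, and that of Hsp90b1 just below their lower quartile of -0.23. The change of Hspa5 relative to Hsp90b1, taken on reads, was 0.13 (0.11 to 0.15) on the log2 scale, and this interval excluded 0. For Hsp90b1, 10.3% of the exon bases are shared with annotation on the other strand and 5.38% with other genes on the same strand.

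BiP works with J-domain partners and nucleotide exchange factors, and their values ranged from near 0 to the highest of this group. Dnajb9, which encodes ERdj4, a partner that holds the sensor IRE1 in check, was at 4.13 RPKM with AS and 2.93 RPKM with the vehicle, from 473 and 380 reads. Its log2 fold change of 0.48 (0.29 to 0.67) was the highest among the chaperone genes. Dnajc10, which encodes the disulfide reductase ERdj5, was at 27.4 RPKM with AS and 26.6 RPKM with the vehicle. The intervals of Dnajc10, Dnajb11 and Dnajc3 held 0. Dnajb11, the ERdj3 gene, was at 29.7 RPKM with AS and 30.5 RPKM with the vehicle, and Dnajc3, the P58IPK gene, at 6.85 and 6.99 RPKM.

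Both exchange factors of BiP were higher with AS. Sil1 was at 13.0 RPKM with AS and 10.8 RPKM with the vehicle, giving a log2 fold change of 0.26 (0.17 to 0.35). Hyou1, which encodes the large chaperone GRP170, was at 9.20 RPKM with AS and 8.25 RPKM with the vehicle, with 0.16 (0.08 to 0.23). The 3 small stress-induced proteins of this group all had intervals below 0. Sdf2l1, whose product binds ERdj3, was at 7.44 RPKM with AS and 9.45 RPKM with the vehicle, from 370 and 532 reads, giving a log2 fold change of -0.34 (-0.53 to -0.15). Manf, a secreted factor that also binds BiP, was at 34.6 RPKM with AS and 40.9 RPKM with the vehicle, with -0.24 (-0.29 to -0.19), and 8.85% of its exon bases are shared with genes on the other strand and 0.397% with one on the same strand. Creld2, a secreted ER stress protein, was at 22.4 RPKM with AS and 25.7 RPKM with the vehicle, with -0.19 (-0.30 to -0.09).

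**Figure D2:**
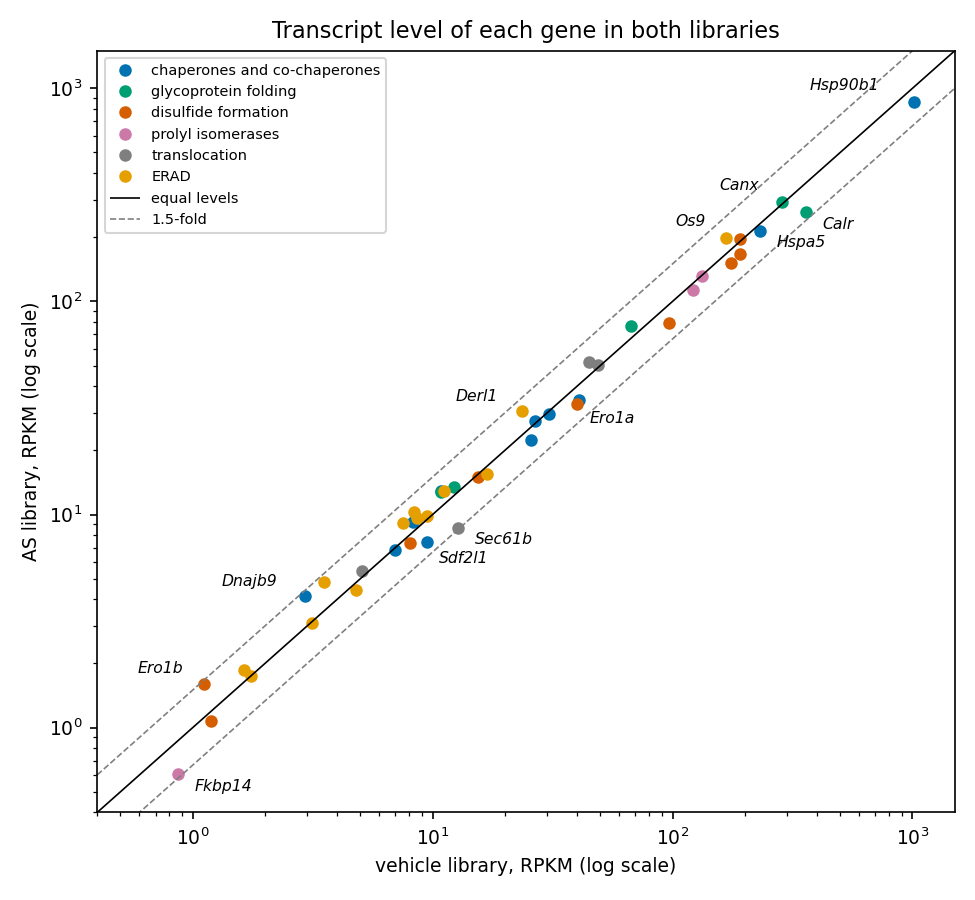
RPKM of the 45 genes in the vehicle library (x axis, log scale) and the AS library (y axis, log scale), 1 point per gene, coloured by role, with lines of equal level and of 1.5-fold. All points lie between the 1.5-fold lines, and the genes range from Fkbp14 at 0.606 RPKM to Hsp90b1 at 1013 RPKM.

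Glycoproteins fold in a cycle in which glucosidase II trims glucose from their sugar chain, the lectins calnexin and calreticulin hold them, and UGGT1 marks those still unfolded for another round. Of the 5 genes of this cycle, 4 were higher (80%, against 60.9% of all genes) and 1 lower with AS, with a median of 0.13. Among the 4, Canx turned sign under the 3 other scalings. Canx and Uggt1 did so once the trends of the fold change with GC content and exon length were removed. Calr (chr8:84841850-84846934), which encodes the soluble lectin calreticulin, was at 263 RPKM with AS and 359 RPKM with the vehicle, from 33976 and 52613 reads. Its log2 fold change of -0.45 (-0.47 to -0.43) was the lowest of any member over 100 RPKM. Canx (chr11:50293961-50325673), which encodes its membrane-bound counterpart calnexin, was at 292 RPKM with AS and 285 RPKM with the vehicle, with 0.04 (0.02 to 0.05). The order of the pair thus turned: the level of Calr was 1.26 times that of Canx in the vehicle library and 0.900 times it in the AS library, a change of -0.49 (-0.51 to -0.46) on the log2 scale that does not depend on the scaling of the libraries. The annotation also lists 1 pseudogene entry for Calr, and reads shared with it could not be separated. Because Calr outweighed the rest, the summed level of the 5 genes was 658 RPKM with AS and 734 RPKM with the vehicle.

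The enzymes of the cycle lay on the other side of 0. Ganab, the catalytic subunit of glucosidase II, was at 12.7 RPKM with AS and 10.8 RPKM with the vehicle, giving a log2 fold change of 0.24 (0.17 to 0.31). Prkcsh, the regulatory subunit of the same enzyme, was at 77.1 RPKM with AS and 67.1 RPKM with the vehicle, with 0.20 (0.17 to 0.23). The ratio of the 2 subunits differed between the libraries by 0.04 (-0.04 to 0.12) on the log2 scale, an interval that holds 0. Uggt1, the folding sensor, was at 13.5 RPKM with AS and 12.3 RPKM with the vehicle, with 0.13 (0.09 to 0.18). Its value was -0.03 once the trends with GC content and exon length were removed.

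Protein disulfide isomerases pass disulfide bonds to their clients and are themselves oxidised by the ERO1 enzymes. Of 9 genes of this group, 2 were higher (22.2%, against 60.9% of all genes) and 7 lower with AS, with a median of -0.14. The summed level was 653 RPKM with AS and 720 RPKM with the vehicle. P4hb, which encodes the founding isomerase PDI, was at 167 RPKM with AS and 190.4 RPKM with the vehicle, giving a log2 fold change of -0.19 (-0.21 to -0.16). Pdia3, which encodes ERp57, the isomerase that works with calnexin and calreticulin, was at 152 RPKM with AS and 175 RPKM with the vehicle, with -0.21 (-0.23 to -0.18). Pdia6, which encodes P5, a partner of BiP, was at 79.1 RPKM with AS and 96.4 RPKM with the vehicle, with -0.28 (-0.32 to -0.25). These 3 isomerases were lower with AS, but Pdia4, which encodes ERp72, was at 196 RPKM with AS and 192 RPKM with the vehicle, with 0.03 (0.01 to 0.06), and its sign turned under the other scalings. Among all genes over 100 RPKM with the vehicle, 24.4% were higher. Their interquartile range of -0.23 to -0.0028 held the values of P4hb and Pdia3. With the trend of the fold change with expression removed, P4hb was at -0.11, Pdia3 at -0.13, Pdia6 at -0.21 and Pdia4 at 0.11. On that scale the median of all genes is 0. The intervals of the 3 rarer thioredoxin-domain genes held 0. Pdia5 was at 7.38 RPKM with AS and 8.05 RPKM with the vehicle, Txndc5 at 15.1 and 15.4 RPKM, and Txndc11 at 1.07 and 1.19 RPKM. For Txndc5, 11.9% of the exon bases are shared with genes on the other strand.

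The 2 oxidases that feed the isomerases went in opposite directions. Ero1a (chr14:45283087-45318771), the broadly expressed form, which is also a known hypoxia target, was at 32.9 RPKM with AS and 39.9 RPKM with the vehicle, giving a log2 fold change of -0.28 (-0.32 to -0.24). Ero1b (chr13:12565874-12611396), best known from pancreatic islet cells, was at 1.61 RPKM with AS and 1.11 RPKM with the vehicle, from 481 and 376 reads, with 0.50 (0.31 to 0.68), the highest value of all 45 genes. That rank depends on the constant added to these low levels. With 1 RPKM added Ero1b was at 0.31, below Dnajb9 at 0.38, Edem3 at 0.37 and Derl1 at 0.36. Dnajb9 was also above it once the trends with GC content and exon length were removed. Ero1a remained the main form in both libraries, at 35.9 times the level of Ero1b with the vehicle and 20.4 times with AS. This change of -0.81 (-1.01 to -0.62) on the log2 scale was the widest of the 11 pairs compared.

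**Figure D3:**
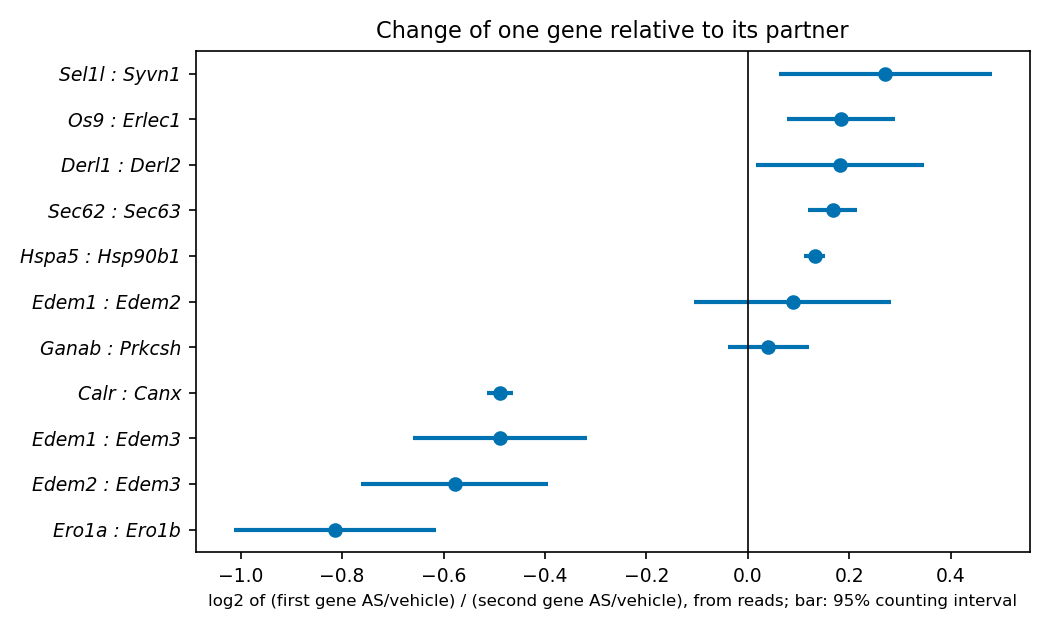
Log2 of the AS over vehicle read ratio of one gene divided by that of its partner, for 11 pairs of related genes, with 95% counting intervals from 1 library per group. The interval lies left of 0 for Ero1a to Ero1b, Calr to Canx and both pairs of Edem3, and holds 0 for Edem1 to Edem2 and Ganab to Prkcsh.

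The 3 prolyl isomerases, which turn the peptide bond before proline, were all lower with AS. Fkbp14, which acts on procollagen, was the rarest member at 0.606 RPKM with AS and 0.868 RPKM with the vehicle, from 113 and 183 reads. Its log2 fold change of -0.45 (-0.76 to -0.15) had the widest interval of the 45 genes. The others were far more abundant and closer to 0. Fkbp2 was at 113 RPKM with AS and 121 RPKM with the vehicle, with -0.11 (-0.15 to -0.06), and Ppib, which encodes cyclophilin B, at 131 and 133 RPKM. The interval of Ppib held 0, and 25.0% of its exon bases are shared with Snx22 on the other strand.

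Entry into the ER runs through the SEC61 channel. Sec61b (chr4:47474658-47483242), its small beta subunit, was at 8.69 RPKM with AS and 12.8 RPKM with the vehicle, from 496 and 826 reads, giving a log2 fold change of -0.55 (-0.71 to -0.39). This was the lowest value of the 45 genes, just inside 1.5-fold, which is 0.58 on the log2 scale, and it passed that threshold under the other scalings. The channel-forming subunit did not follow it. Sec61a1 was at 5.44 RPKM with AS and 5.09 RPKM with the vehicle, with an interval of -0.0022 to 0.19 that held 0, and 8.16% of its exon bases are shared with another gene. Sec62, a receptor for post-translational entry that also serves ER-phagy, was at 51.7 RPKM with AS and 44.7 RPKM with the vehicle, with 0.21 (0.17 to 0.25). Sec63, the J-domain protein that brings BiP to the channel, was at 50.5 RPKM with AS and 49.1 RPKM with the vehicle, with 0.04 (0.01 to 0.07). Sec62 was thus below Sec63 in the vehicle library and above it in the AS library, with 11.7% of the exon bases of Sec62 shared with another gene.

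Of the 13 ERAD genes, 10 were higher (76.9%, against 60.9% of all genes) and 3 lower with AS, and 8 lay above the median of all genes. The share higher was 72.7% among 22 other ERAD genes, 78.8% among 33 other ER folding genes and 41.7% among 24 other genes of ER entry and N-glycosylation. Among the 13, Erlec1 and Syvn1, with values near 0, turned sign under each of the 3 other scalings and both removals of trends. This left 8 of the 13 higher. The median was 0.18 against 0.07 for all genes, and the summed level was 312 RPKM with AS and 267 RPKM with the vehicle, a difference of 16.7%. In alternatives chosen after the values were seen, this median was 0.08 once the trend of the fold change with expression was removed, and 0.07 once those with GC content and exon length were removed, on a scale where the median of all genes is 0. Os9 (chr10:127095650-127121131), a lectin that hands misfolded glycoproteins to the ligase, was by far the most abundant at 198 RPKM with AS and 167 RPKM with the vehicle, giving a log2 fold change of 0.25 (0.22 to 0.27). Its counterpart Erlec1 was at 9.89 RPKM with AS and 9.47 RPKM with the vehicle, and its interval held 0. The difference between these 2 lectins was 0.18 (0.08 to 0.29) on the log2 scale.

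Mannose trimming by the EDEM proteins marks glycoproteins for ERAD, and 1 of the 3 genes stood apart. Edem3 (chr1:151755371-151822051) was at 4.83 RPKM with AS and 3.52 RPKM with the vehicle, from 1385 and 1141 reads, giving a log2 fold change of 0.45 (0.34 to 0.56). Edem1 was at 3.08 RPKM with AS and 3.15 RPKM with the vehicle, and Edem2 at 4.42 and 4.81 RPKM, and both intervals held 0. Edem3 was the intermediate form with the vehicle and the highest of the 3 with AS. The change of Edem1 relative to Edem3 was -0.49 (-0.66 to -0.32), that of Edem2 relative to Edem3 -0.58 (-0.76 to -0.39), and that of Edem1 relative to Edem2 0.09 (-0.11 to 0.28).

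At the ER membrane, HRD1 (Syvn1) is the ubiquitin ligase, SEL1L its adaptor, HERP (Herpud1) a component of the complex, and the derlins help to move clients out. Sel1l was at 9.13 RPKM with AS and 7.52 RPKM with the vehicle, giving a log2 fold change of 0.28 (0.21 to 0.34). Syvn1 was at 1.76 RPKM with AS and 1.75 RPKM with the vehicle, with 0.0076 (-0.18 to 0.20). The adaptor was higher relative to the ligase by 0.27 (0.06 to 0.48) on the log2 scale. Herpud1 (chr8:94386438-94395377), the gene whose promoter holds both ERSE-II and the ATF4 composite site, was at 10.3 RPKM with AS and 8.40 RPKM with the vehicle, from 1081 and 996 reads, with 0.29 (0.17 to 0.42). Derl1 (chr15:57869502-57892448) was at 30.6 RPKM with AS and 23.7 RPKM with the vehicle, with 0.37 (0.31 to 0.43). Derl2 was much rarer, at 1.86 RPKM with AS and 1.64 RPKM with the vehicle, with 0.18 (0.03 to 0.32). The interval of the difference between the 2 derlins, 0.02 to 0.35, lay close to 0 at its lower end.

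The genes that link the ligase to ubiquitin and to the p97 ATPase were split. Ube2j1, the ubiquitin-conjugating enzyme of this ligase, was at 9.61 RPKM with AS and 8.57 RPKM with the vehicle, giving a log2 fold change of 0.16 (0.06 to 0.27). Faf2, which recruits p97, was at 12.9 RPKM with AS and 11.1 RPKM with the vehicle, with 0.21 (0.15 to 0.27). Selenos, a selenoprotein that also binds p97, was at 15.5 RPKM with AS and 16.8 RPKM with the vehicle, with an upper bound of the interval at -0.00028.

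**Figure D4:**
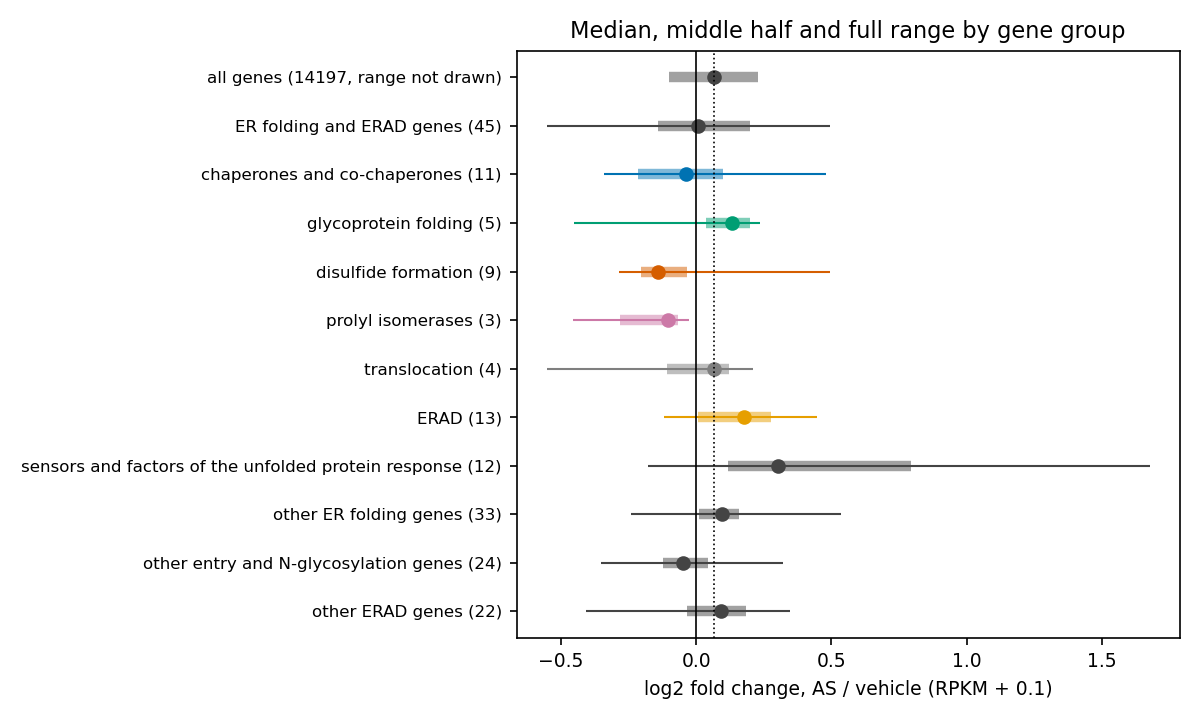
Log2 fold change of AS over vehicle by gene group, with the median as a point, the interquartile range as a thick bar and the full range as a thin line, the number of genes in brackets, and the full range of all genes not drawn. The medians run from -0.14 for the disulfide genes to 0.30 for the sensors and factors of the unfolded protein response, against 0.07 for all genes (dotted line).

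Over all 45 genes the summed level was 3212 RPKM with AS and 3494 RPKM with the vehicle, a difference of -8.07%, against -3.90% for the sum over the whole table. Most of the members' sum came from the 10 over 100 RPKM with the vehicle, at 2586 RPKM with AS and 2867 RPKM with the vehicle. That is a difference of -9.78%, against -7.74% for the sum of all 517 genes over that level. Hsp90b1 was the largest single part of the sums over the 45 genes. Without that gene they were 2352 and 2481 RPKM, a difference of -5.19%. Direction and level were only loosely related. Among the 10 genes over 100 RPKM with the vehicle, 3 were higher (30%, against 24.4% of all genes over that level) and 7 lower. Their median was -0.10, as it was for all genes over that level, and the remaining 35 had a median of 0.04. The abundant Os9, Canx and Pdia4 were nevertheless higher, but Canx and Pdia4 turned sign under the 3 other scalings. Of the 10, Os9 alone exceeded 0.07, the median over the whole table. The lowest value was that of Sec61b, under 100 RPKM. The rare Fkbp14 at -0.454 and the abundant Calr at -0.452 came next. Calr was below Fkbp14 under the 3 other scalings and with 1 RPKM added. Fkbp14 was below Calr with 0 RPKM added, and with the expression trend, or the GC and length trends, removed. Across the 45 genes Spearman's rho of the log2 fold change was -0.24 with the level, 0.34 with the exon length and -0.12 with the GC content, and across the 12858 genes of the table with recovered reads it was -0.16, 0.21 and -0.12. These are descriptions across genes of the same 2 libraries, and the part of level and length in the differences between the roles was not tested.

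Members with the ERSE did not have a higher median fold change than those without it. The 9 genes whose promoters are shown above had a median log2 fold change of -0.10, 3 above and 6 below 0, and the 30 genes with a window and no match had a median of 0.0045, 15 above and 15 below. The 9 genes ranged from Calr at -0.45 to Ero1b at 0.50, nearly the whole range of the members. Of the 9, Calr, Canx, Hsp90b1 and Hspa5 were over 100 RPKM with the vehicle, and all genes over that level had a median of -0.10. The part of level in this comparison was not tested. The 30 genes include Herpud1 and Dnajb11, which hold the related ERSE-II. The other 7 genes of the table with the ERSE, which were not members, had a median of 0.13.

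**Figure D5:**
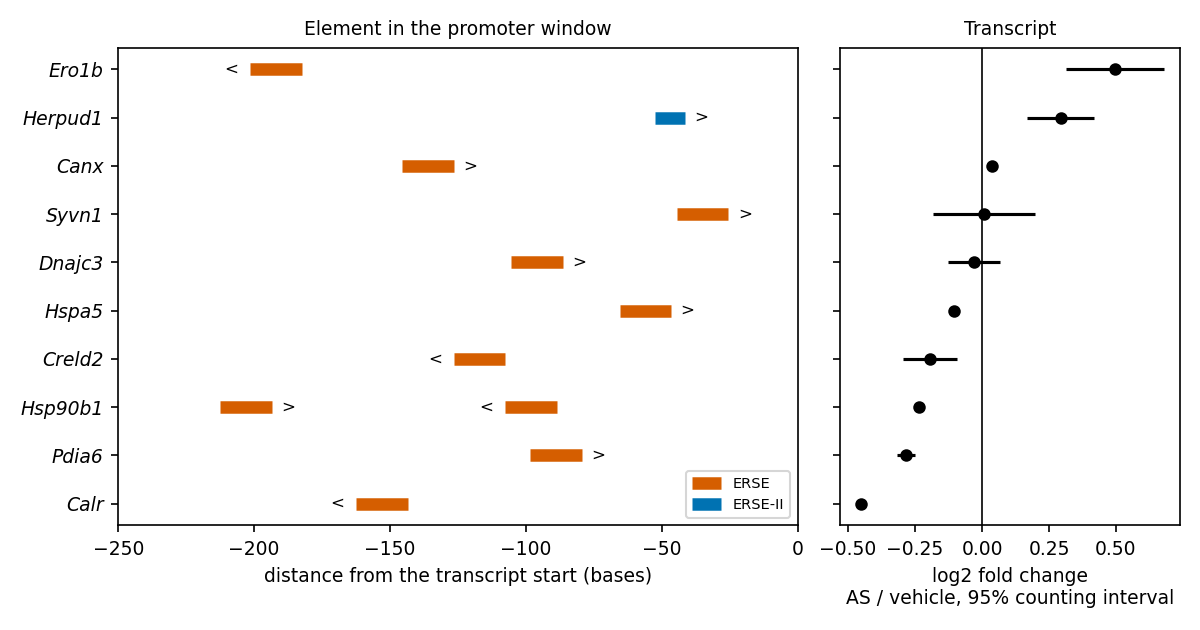
Left, position of the ERSE (orange) or ERSE-II (blue) upstream of the RefSeq transcript start, in bases, with arrowheads for the orientation. Right, log2 fold change of AS over vehicle with 95% counting intervals for the same genes, which run from Calr at -0.45 to Ero1b at 0.50 without a visible order by position or orientation.

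By known regulator, the 7 members listed as ATF6 targets had a median of -0.10 (3 higher and 4 lower) and the 5 listed as XBP1 targets one of -0.03 (1 higher and 4 lower). The share higher was thus 42.9% and 20%, against 60.9% of all genes. Among all genes over 100 RPKM with the vehicle, as Calr, Hsp90b1, Hspa5 and Pdia4 of the ATF6 list were, it was 24.4%, with a median of -0.10. The part of level in these values was not tested, and both shares depend on which members were listed. Most of the 13 ERAD genes are on neither list, and of the 13, 10 were higher (76.9%). Of 6 transcripts known to be cut by IRE1, 2 were higher (33.3%, against 60.9% of all genes) and 4 lower, with a median of -0.18. None passed 1.5-fold, against 5.57% of all genes, and with so few genes a count of none says little. Among the 12 sensors and factors of the unfolded protein response, the median was 0.30. Of these, 4 were higher by more than 1.5-fold and 0 lower (33.3%, against 5.57% of all genes in either direction). They were Ddit3, the gene of the transcription factor CHOP, at 101 RPKM with AS and 31.5 RPKM with the vehicle, Ppp1r15a, which encodes the eIF2alpha phosphatase subunit GADD34, at 20.3 and 9.01 RPKM, Ern1, the IRE1 gene, at 6.61 and 3.12 RPKM, and Atf4 at 123 and 75.5 RPKM. No gene passed 1.5-fold in either direction among 33 other ER folding genes, whose median was 0.10, 24 other genes of ER entry and N-glycosylation, with -0.05, and 22 other ERAD genes, with 0.09. Of all genes, 5.57% did.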

How the data were processed

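Total RNA of 4T1 cells was made into stranded mRNA libraries, 1 with AS and 1 with the vehicle. Per the labels, the submitters' processing notes name fastp 0.23.4, STAR 2.5.3a, featureCounts and the human build GRCh38, although the cells and gene symbols are mouse; the strand setting of the counting and the filter on low genes are not given in the sources used here. The authors deposited 1 table with an RPKM value per gene and library, a unit found from the values. Its columns with the authors' log2 fold change, mean log2 CPM, p-value and FDR were not used.

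Of the 14197 genes, 13502 were matched by symbol and 155 by RefSeq synonym to GENCODE M21 (GRCm38). RPKM times exon length gave whole reads within 0.02 reads in both libraries for 12858 of the 13657 matched genes (94.1%), including the 45 members, at library sizes of 44909683 (AS) and 50820728 (vehicle). Fold changes were log2 ratios with 0.1 RPKM added, and the authors' scaling was kept. Intervals at the 95% level are Clopper-Pearson intervals on reads or, for pairs, log odds ratio intervals, and cover counting error only. With 1 library per group no test was run. Thresholds were 2-fold and 1.5-fold, and 1.25-fold was added after the values were seen. The members, their roles and the gene lists were chosen with earlier results of these data known. All members are named; of the other lists, up to 4 higher and 4 lower genes past 1.5-fold. Promoter windows came from RefSeq. The planned look at carboxy-terminal retention signals was not run, since protein sequences were not used here. Alternatives were 0 or 1 RPKM added, TMM, upper-quartile and median scaling, minimum means of 1 and 10 RPKM, and removal of trends with expression, or with GC content and length, in 20 bins. The scripts were tested on simulated data and ran in Python 3.11.15 with NumPy 2.4.6, pandas 2.3.3 and SciPy 1.17.1.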

Additional observations from a re-analysis of the deposited data

How the results depend on the processing

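With 1 library per group no replicate could be left out, and no spread between cultures could be measured, which limits every value given here. No paired analysis was possible because each group has 1 library and no test was run. The count of members past 2-fold was 0 under every alternative. The count past 1.5-fold went from 0 to 1, Sec61b, under TMM scaling, upper-quartile scaling, the median of gene ratios set to 0, and removal of the trend with expression. The count past 1.25-fold went from 8 to 5 with 1 RPKM added and to 3 of the 27 members with a mean of at least 10 RPKM. The log2 ratio of the summed levels went from -0.12 to -0.19 under each of the 3 scalings and to -0.077 without Hsp90b1. The median of the members went from 0.0076 to -0.067, and that of the ERAD members from 0.18 to 0.068, with the GC and length trends removed, while the ERAD median was 0.084 with the expression trend removed. The cause was not tested. A median was taken as unmoved within the typical uncertainty of a member's counting interval, and the median of the disulfide members, negative throughout, was unmoved in this sense. The scalings shifted every gene by -0.07 and turned the sign of 6 members, the expression trend that of 4 (Erlec1, Ppib, Sec61a1 and Syvn1), and the GC and length trends that of 7, the 6 named in the report with Uggt1. No member with a log2 fold change beyond 0.14 in size changed sign under any alternative. Depth limits the rare members most, since Fkbp14 rests on 113 reads with AS.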
